A study of Mus musculus with 12 samples.

Results

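The transcription regulators of cardiac metabolism described here are 7 genes, namely the coactivator genes Ppargc1a and Ppargc1b, the nuclear receptor genes Ppara and Esrra, the Kruppel-like factor gene Klf15, and Nrf1 and Tfam, which act on nuclear and mitochondrial genes of respiration. Their members were the probe sets annotated to 1 of these genes and to no other, which gave 13 of the 22690 probe sets on the array. Ppargc1a had 5 probe sets and Nrf1 had 3, whereas each of the others had 1. All but a dim probe set of Nrf1 were bright enough to be tested, so that 12 were compared between groups.

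Cardiac muscle draws most of its ATP from fatty acid oxidation, and these regulators set the capacity for it at the level of transcription. PGC-1 alpha (Ppargc1a) and PGC-1 beta (Ppargc1b) do not bind DNA themselves but are recruited by nuclear receptors such as PPAR alpha (Ppara), which activates genes of fatty acid uptake and oxidation, and ERR alpha (Esrra), which activates genes of the citric acid cycle and the respiratory chain. They also coactivate nuclear respiratory factor 1 (Nrf1), one of whose targets is Tfam, the protein that packages mitochondrial DNA and is needed for its transcription. KLF15 (Klf15) regulates lipid and amino acid use in heart and muscle, and its transcript follows a daily rhythm.

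Total RNA labelled as heart, with cardiac muscle as its source, was hybridised to 12 Affymetrix arrays in 4 groups of 3, which were mdx and control hearts at 10.5 months and mdx and control hearts at 8 weeks. The mdx mouse carries a nonsense mutation in the dystrophin gene Dmd in every cell and is a model of Duchenne muscular dystrophy, while the series title calls the controls wild type. The sources used here do not give strain, sex, hour of collection or the number of animals behind an array, so that p-values measure the spread between these arrays, which may be technical in part. The labels name no batch, so arrays cannot be assigned to one.

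Levels are signals scaled to a trimmed mean of 500 on every array, and differences are log2 fold changes of signal plus an offset of 32, which understates changes of dim genes. Each difference is given with the standard error of a limma fit across 14932 probe sets, and a Benjamini-Hochberg adjusted p below 0.05 was called a change. The brightest Dmd probe set checked the labels, with 159 to 286 units on the mdx arrays and 607 to 839 on the control arrays. The sample records carry a keyword naming extraocular muscle, but the 9 fast skeletal muscle markers summed to 249 to 685 units on each array and the 12 ventricular markers to 151509 or more. On 4 arrays, namely mdx replicates 1 and 2 and control replicate 2 at 8 weeks and mdx replicate 3 at 10.5 months, the brightest probe sets reached higher than elsewhere, and calls of member probe sets are also given without them. Leaving them out leaves 1 mdx and 2 control arrays at 8 weeks and 2 mdx and 3 control arrays at 10.5 months.

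Klf15 was the member that differed between mdx and control hearts, and it did so at 8 weeks. Its probe set gave 369, 309 and 445 units in mdx hearts, against 885, 666 and 642 units in control hearts. All 3 mdx arrays lay below all 3 control arrays. Klf15 fell 1.88-fold in mdx hearts (log2 -0.91 ± 0.20, 95% interval -1.34 to -0.48, limma adjusted p = 0.0383), with means of 374 ± 68.2 units in mdx hearts and 731 ± 134 units in control hearts (SD, n = 3 each). It was the only one of the 12 tested probe sets called at this age, in a comparison that called 2.3% of all tested probe sets and 0.911% in the lower direction.

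At 10.5 months Klf15 had 394, 263 and 435 units in mdx hearts, against 446, 411 and 493 units in control hearts. The groups overlapped, and the difference of -0.31 ± 0.20 did not pass the test (adjusted p = 0.768, 95% interval -0.74 to 0.12). The mdx effects at the 2 ages were not shown to differ (10.5 months minus 8 weeks 0.60 ± 0.28, adjusted p = 0.415, and 0.28 without the arrays of wide signal range). All 3 control arrays at 8 weeks lay above the other 9 arrays of the series. Between the ages, controls at 10.5 months lay below controls at 8 weeks on every array, with a difference of -0.65 ± 0.20 that did not pass (adjusted p = 0.222), and mdx hearts at the 2 ages overlapped (-0.05 ± 0.20, adjusted p = 0.890, and -0.43 without the arrays of wide signal range, adjusted p = 0.349).

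The Klf15 difference at 8 weeks kept its direction in each of 24 alternative settings, but its adjusted p was above the threshold in 13 of them. Among single arrays left out, the adjusted p was 0.127, 0.0529 and 0.0896 without control replicates 1, 2 and 3 at 8 weeks, and 0.0720 and 0.0845 without mdx replicates 1 and 2 at 8 weeks. It was 0.0604, 0.0595 and 0.0547 without control replicates 1, 2 and 3 at 10.5 months and 0.0503 without mdx replicate 1 at 10.5 months. With the arrays of wide signal range left out, Klf15 was at -0.72 (adjusted p = 0.192). Markers of other cells are given for the same comparison. The 12 fibroblast markers summed to 37208 to 45344 units in mdx hearts and 27659 to 35337 in control hearts at 8 weeks. Limma called 0 of these 12, with 1 at an unadjusted p below 0.05, where 17.7% of all genes were. Among them 11 had positive values and 1 negative, with a median of 0.3. The 9 atrial markers summed to 13139 to 14016 units in mdx hearts and 6153 to 8363 in control hearts. Among the 8 tested, 6 had positive and 2 negative values, with a median of 0.54 and 2 at an unadjusted p below 0.05. Most of the atrial sum was Nppa, the atrial natriuretic peptide gene. It had 10291 units in mdx hearts and 4343 in control hearts (1.25 ± 0.31, adjusted p = 0.0548). The atrial marker that was called, 1 of 8 tested, went the other way, the potassium channel gene Kcna5 with 374 units in mdx hearts and 851 in control hearts (-1.10 ± 0.19, adjusted p = 0.0173), where 0.96% of all genes were called lower. With the atrial score as a covariate, Klf15 was at -0.90 (adjusted p = 0.0638), whereas the part of the fibroblast markers was not tested. Of 7 smooth muscle markers 2 were lower in mdx hearts, beside that same 0.96% of all genes, Acta2 with 3876 units in mdx and 6775 in control hearts (-0.80 ± 0.14, adjusted p = 0.0184) and Smtn (-0.69 ± 0.16, adjusted p = 0.0467). Among the 7, however, 4 had positive and 3 negative values, with a median of 0.07. All 8 on the array summed to 13422 to 20179 units in mdx hearts and 15972 to 19191 in control hearts. The 4 red cell markers summed to 859 to 1105 units in mdx hearts and 1080 to 4236 in control hearts, and the part of either list was not tested. In RNA of a whole tissue, fewer cells of a type and less RNA per cell cannot be told apart.

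The window around an annotated start of Klf15 is shown because Klf15 was the member called in mdx hearts. It was also chosen because it holds E-boxes, the letters bound by the clock factors CLOCK and BMAL1 among others. It spans chr6:90462326-90462625 of GRCm38.p6 on the plus strand, from 250 bases before to 50 after the start, and capitals mark the E-box CACGTG, which reads the same on both strands. The matches begin at positions -228, -172 and -3 from the start.
Klf15: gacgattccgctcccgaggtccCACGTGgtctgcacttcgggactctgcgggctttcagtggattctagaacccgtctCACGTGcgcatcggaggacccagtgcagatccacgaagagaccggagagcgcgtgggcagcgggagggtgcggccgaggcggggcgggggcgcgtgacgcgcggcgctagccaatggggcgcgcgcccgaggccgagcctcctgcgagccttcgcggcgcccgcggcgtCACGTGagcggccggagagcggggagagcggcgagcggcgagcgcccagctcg
At least 1 CACGTG stood in 7.15% of 32851 RefSeq windows of this length and 3 or more in 0.0883%, and the other 5 members with a window held none. The motifs TNAAGGTCA for ERR and TTATGNAA for clock output factors, searched on both strands, had no match in the 7 windows of the members and stood in 1.28% and 3.38% of all windows. RefSeq windows were matched for 6 of the 7 members, and the motifs were chosen with the windows in view. For Klf15 and Ppargc1a the window lies inside the annotated span of the gene, so starts further upstream were not searched.

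**Figure D1:**
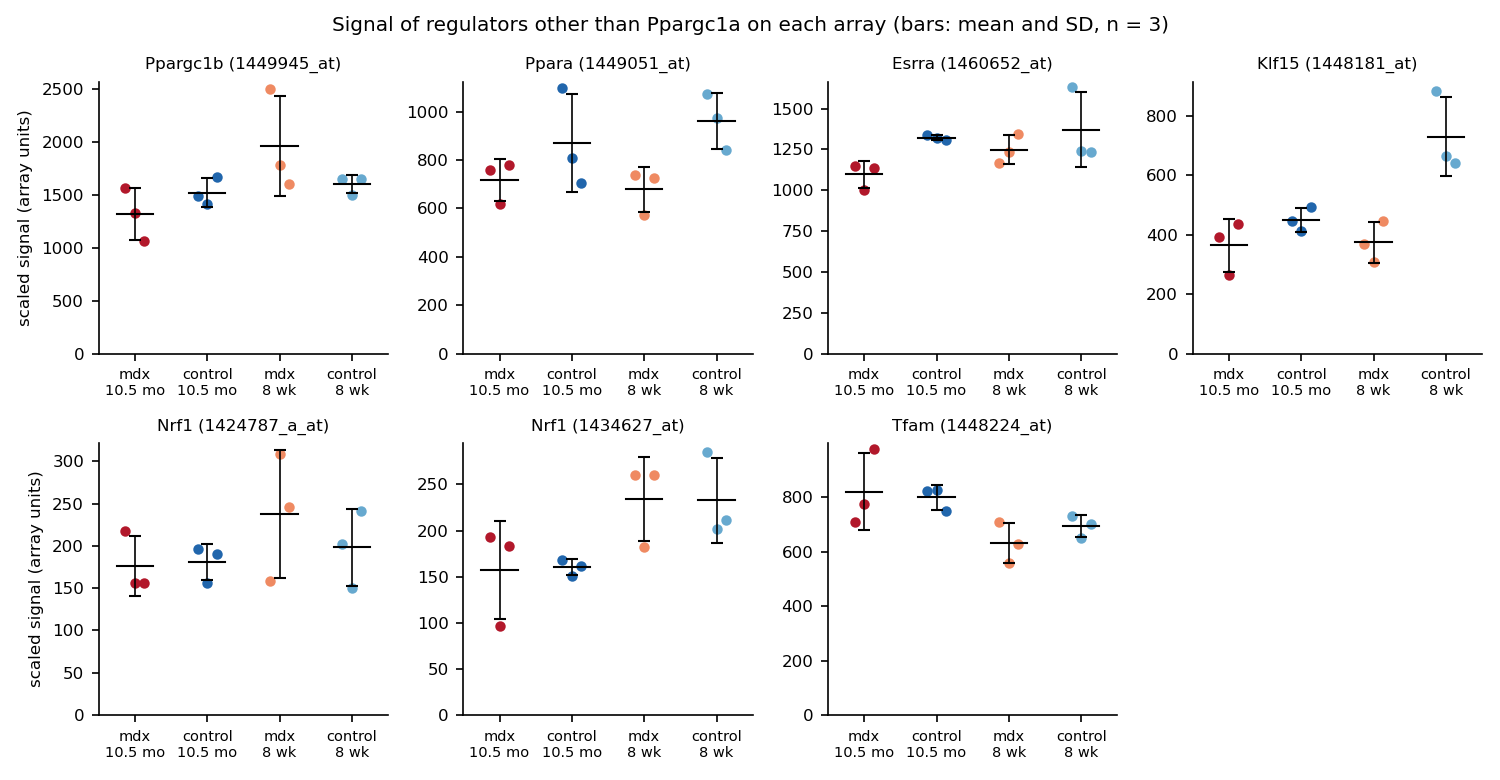
Scaled signal (vertical axis, array units) of 7 probe sets of the 6 regulators other than Ppargc1a, in mdx and control hearts at 10.5 months and 8 weeks. Points are arrays, and bars are the mean and SD of 3 arrays. Klf15 lies at 642 units or more in controls at 8 weeks and at 493 or less in the other groups, and Ppara lies at 740 or less in mdx hearts at 8 weeks and at 840 or more in their controls.

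Of the genes that depend on KLF15 or break down branched-chain amino acids, 0 of 24 were called by limma in mdx hearts at each age, where 2.15% of all genes were called at 8 weeks and 0.0678% at 10.5 months. At an unadjusted p below 0.05 there were 4 at 8 weeks and 6 at 10.5 months, and such counts stand beside 17.7% of all 8852 genes at 8 weeks, 7.34% at 10.5 months, 12% for the difference of the mdx effects, 11.8% with age in controls and 30.1% with age in mdx hearts. Their median log2 fold change was -0.24 at 8 weeks and -0.14 at 10.5 months, beside -0.01 and -0.02 over all genes tested. Bckdhb, a subunit of the branched-chain ketoacid dehydrogenase, had the smallest p at 8 weeks (-0.42 ± 0.15, adjusted p = 0.176). At 10.5 months it was Gpt2, a mitochondrial alanine aminotransferase (-0.66 ± 0.17, adjusted p = 0.367). Among the other Kruppel-like factors 0 of 12 were called by limma at 8 weeks, with 3 at an unadjusted p below 0.05. Klf13 came nearest, at 690 units in mdx hearts and 1080 in control hearts (-0.64 ± 0.16, adjusted p = 0.0591).

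Glucocorticoids and the circadian clock both act on Klf15, and their gene lists are given beside it. Of 18 glucocorticoid responsive genes 0 were called by limma at either age in mdx hearts, with 7 at an unadjusted p below 0.05 at 8 weeks and 6 at 10.5 months. The smallest p at 8 weeks was that of Tsc22d3, an inducible leucine zipper protein, at 1060 units in mdx hearts and 1615 in control hearts (-0.60 ± 0.18, adjusted p = 0.101). Of 14 clock genes 0 were called at 8 weeks, with a median of -0.14 and 6 at an unadjusted p below 0.05. At 10.5 months 2 were lower (median -0.83), which were the PAR bZIP factor genes Dbp, with 346 units in mdx hearts and 1480 in control hearts (adjusted p = 0.0184), and Tef, with 874 units in mdx hearts and 2187 in control hearts (-1.31 ± 0.20, adjusted p = 0.0414), where 0.0452% of all genes were called lower. Neither gene was called after the arrays of wide signal range were left out. With hours of collection not given, the part of time of day was not tested.

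Ppara was called at neither age, although its arrays did not overlap at 8 weeks. It had 740, 572 and 728 units in mdx hearts at 8 weeks, against 1073, 976 and 840 in control hearts. All mdx arrays lay below all control arrays, by 1.40-fold (log2 -0.49 ± 0.19, 95% interval -0.89 to -0.09, adjusted p = 0.191), and the value ran from -0.58 to -0.37 over the 24 alternatives. At 10.5 months the signals were 757, 618 and 779 in mdx hearts and 1099, 810 and 703 in control hearts. These overlapped (-0.25 ± 0.19, adjusted p = 0.802), and neither age comparison passed (0.08 ± 0.19 in mdx hearts and -0.16 ± 0.19 in controls, adjusted p = 0.814 and 0.780).

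In all, 3 of the 12 tested probe sets lay lower on all mdx arrays at 8 weeks, namely those of Klf15 and Ppara and 1 of Ppargc1a, and 0 lay higher on all of them. Over all tested probe sets 10.1% were lower and 9.51% higher without overlap. At 10.5 months limma called 0 of the 12, and 0 passed an unadjusted p below 0.05, where 0.0469% of all tested were called. There 1 of 12 lay lower on all mdx arrays, which was Esrra, and 0 lay higher, where 10.6% and 7.51% of all tested did. Of 8 tested atrial markers 0 were called at 10.5 months, with 5 at an unadjusted p below 0.05, where 7.34% of all genes were. Among them 2 had positive and 6 negative values, with a median of -0.5. The marker Myl7 had 3554, 2216 and 130.5 units in control hearts and 270, 151 and 284 in mdx hearts. These control arrays also enter the list results at this age and the age comparison in controls. With the atrial score as a covariate limma also called 0 of the 12.

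Targets of PPAR alpha in heart had 0 of 24 members called by limma in mdx hearts at either age. The number at an unadjusted p below 0.05 was 4 at 8 weeks and 2 at 10.5 months. Their median was 0.22 at 8 weeks, and 0.06 after quantile normalization and -0.19 without the arrays of wide signal range. Pdk4, which restrains glucose oxidation, was at 9372 units in mdx hearts and 4854 in control hearts at 8 weeks (0.92 ± 0.34, adjusted p = 0.180). At 10.5 months the median was -0.02, and -0.18 after quantile normalization and -0.16 with signal range as a block, and the acyl-CoA thioesterase gene Acot1 had the smallest p (-0.93 ± 0.35, adjusted p = 0.640).

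Esrra showed no called difference. It had 1165, 1237 and 1345 units in mdx hearts at 8 weeks, against 1634, 1240 and 1235 in control hearts, and these overlapped (-0.12 ± 0.15, adjusted p = 0.717). At 10.5 months it had 1150, 1001 and 1138 units in mdx hearts, against 1336, 1321 and 1307 in control hearts. The mdx arrays were all lower, by 1.20-fold (log2 -0.27 ± 0.15, 95% interval -0.58 to 0.05), and the difference did not pass (adjusted p = 0.717). The control arrays at 10.5 months were close together, with an SD of 14.9 units against 229 at 8 weeks, and the fit uses 1 spread for all groups.

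Targets of ERR alpha, mostly of the citric acid cycle and respiratory chain, had 0 of 24 members called by limma in mdx hearts at either age, with 1 and 0 at an unadjusted p below 0.05 at 8 weeks and at 10.5 months. At 8 weeks 23 had positive values with a median of 0.23, but the median was 0.00 after quantile normalization and -0.16 without the arrays of wide signal range. At 10.5 months it was 0.12, and -0.08 after quantile normalization. The median thus changed sign with quantile normalization at 10.5 months. At 8 weeks it did so without the arrays of wide signal range, which leaves 1 mdx array. Ckmt2, the mitochondrial creatine kinase of muscle, had the smallest p at 8 weeks, at 35896 units in mdx hearts and 19411 in control hearts (0.81 ± 0.32, adjusted p = 0.202).

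Ppargc1b had 2497, 1777 and 1600 units in mdx hearts at 8 weeks, against 1647, 1500 and 1645 in control hearts. Replicate 1 of the mdx hearts, an array of wide signal range, stood above the others, and the difference of 0.26 ± 0.19 did not pass (adjusted p = 0.493) and was -0.04 without the 4 such arrays. At 10.5 months it had 1563, 1324 and 1066 units in mdx hearts, against 1485, 1408 and 1668 in control hearts (-0.22 ± 0.19, adjusted p = 0.841). Mdx hearts at 10.5 months were lower than mdx hearts at 8 weeks on every array (-0.55 ± 0.19, adjusted p = 0.0700), while the controls overlapped between the ages (-0.07 ± 0.19, adjusted p = 0.915). The first of these differences was past the threshold after quantile normalization (-0.62, adjusted p = 0.0368), with an intensity trend (adjusted p = 0.0433) and without mdx replicate 3 at 8 weeks (-0.68, adjusted p = 0.0408). It was smaller without mdx replicate 1 at 8 weeks (-0.37, adjusted p = 0.205) and without all arrays of wide signal range (-0.15, adjusted p = 0.632).

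Nrf1 was measured by 2 probe sets of similar brightness and a dim one. The first, 1424787_a_at, had 158, 309 and 246 units in mdx hearts at 8 weeks, against 203, 151 and 242 in control hearts (0.21 ± 0.22, adjusted p = 0.672). The second, 1434627_at, had 260, 182 and 260 units in mdx hearts at 8 weeks, against 285, 201 and 211 in control hearts (0.01 ± 0.22, adjusted p = 0.991). Neither separated mdx from control hearts, and at 10.5 months they were at -0.04 ± 0.22 and -0.06 ± 0.22 (adjusted p = 0.980 and 0.965). The dim probe set, 1420978_at, was not tested, with 84 units on mdx replicate 3 at 10.5 months and 6.5 to 20.1 on the other arrays. Between the ages, 1434627_at had 193, 96.2 and 183 units in mdx hearts at 10.5 months and 168, 151 and 162 in controls at 10.5 months. Its age differences were -0.52 ± 0.22 in mdx hearts (adjusted p = 0.131) and -0.45 ± 0.22 in controls (adjusted p = 0.440), without overlap in the controls alone.

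Targets of NRF1 had 0 of 22 members called by limma in mdx hearts at either age, with 1 at an unadjusted p below 0.05 at each. Tomm22, a receptor of the mitochondrial import channel, came nearest at 8 weeks, at 1159 units in mdx hearts and 1736 in control hearts (-0.57 ± 0.14, adjusted p = 0.0505). At 10.5 months the list's median was 0.23, and 0.10 after quantile normalization, with the smallest p for Tspo, an outer membrane protein that was at 1190 units in mdx hearts and 719 in control hearts (0.65 ± 0.27, adjusted p = 0.666).

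Tfam had 708, 560 and 627 units in mdx hearts at 8 weeks, against 732, 650 and 702 in control hearts (-0.14 ± 0.15, adjusted p = 0.694). At 10.5 months it had 708, 776 and 978 units in mdx hearts, against 823, 827 and 748 in control hearts (0.02 ± 0.15, adjusted p = 0.982). It was the one tested member probe set that lay higher on all control arrays at 10.5 months than on those at 8 weeks, at 0.20 ± 0.15 (adjusted p = 0.654), where 12.2% of all tested probe sets did so. In mdx hearts the age difference was 0.36 ± 0.15, with overlap (adjusted p = 0.140).

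Around Tfam, the genes that copy, repair and transcribe mitochondrial DNA had 0 of 17 called by limma in mdx hearts at either age, with 3 and 2 at an unadjusted p below 0.05 at 8 weeks and 10.5 months. In mdx hearts at 10.5 months against 8 weeks 4 of 17 rose and 0 fell, where 5.68% of all genes were called higher and 5.59% lower. Ssbp1, the single-strand binding protein of mitochondrial DNA, had 3124 units at 10.5 months and 1534 at 8 weeks (1.02 ± 0.21, adjusted p = 0.0114). Tefm, the mitochondrial transcription elongation factor, had 538 units at 10.5 months and 278 at 8 weeks (0.86 ± 0.18, adjusted p = 0.0114). The nucleoside kinase genes Dguok (0.68 ± 0.15, adjusted p = 0.0157) and Tk2 (0.61 ± 0.19, adjusted p = 0.0499) were the others. In control hearts limma called 0 of 17 between the ages, where it called 0.158% of all genes, with 3 at an unadjusted p below 0.05 and a median of 0.14, beside 0.22 in mdx hearts. Whether the age effect differed between genotypes was tested by the difference of the mdx effects, which called 0 of the 17, with 2 at an unadjusted p below 0.05, and 0.158% of all genes. Without the arrays of wide signal range 1 of the 17 was called in mdx hearts. Cell type markers were called in the same comparison. Of 12 fibroblast markers 3 rose, Dpt, Lum and Mfap5 (1.05, 1.17 and 1.27, adjusted p = 0.00425, 0.00432 and 0.00735). All 11 tested ventricular markers had negative values and 2 fell, the potassium channel gene Kcnd2 (-0.88, adjusted p = 0.00560) and the calcium release channel gene Ryr2 (-0.92, adjusted p = 0.0178). The ventricular median was -0.32, but -0.01 after quantile normalization. Of 12 endothelial markers 1 fell, Flt1 (-0.60, adjusted p = 0.0472). The part of these markers in the age results of mdx hearts was not tested. In control hearts Acta2, 1 of 7 tested smooth muscle markers, fell with age (-1.16 ± 0.14, adjusted p = 0.00505). Its mdx effects at the 2 ages differed (1.44 ± 0.20, adjusted p = 0.0196). With age in control hearts 4 of the 7 had positive and 3 negative values, with a median of 0.17.

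**Figure D2:**
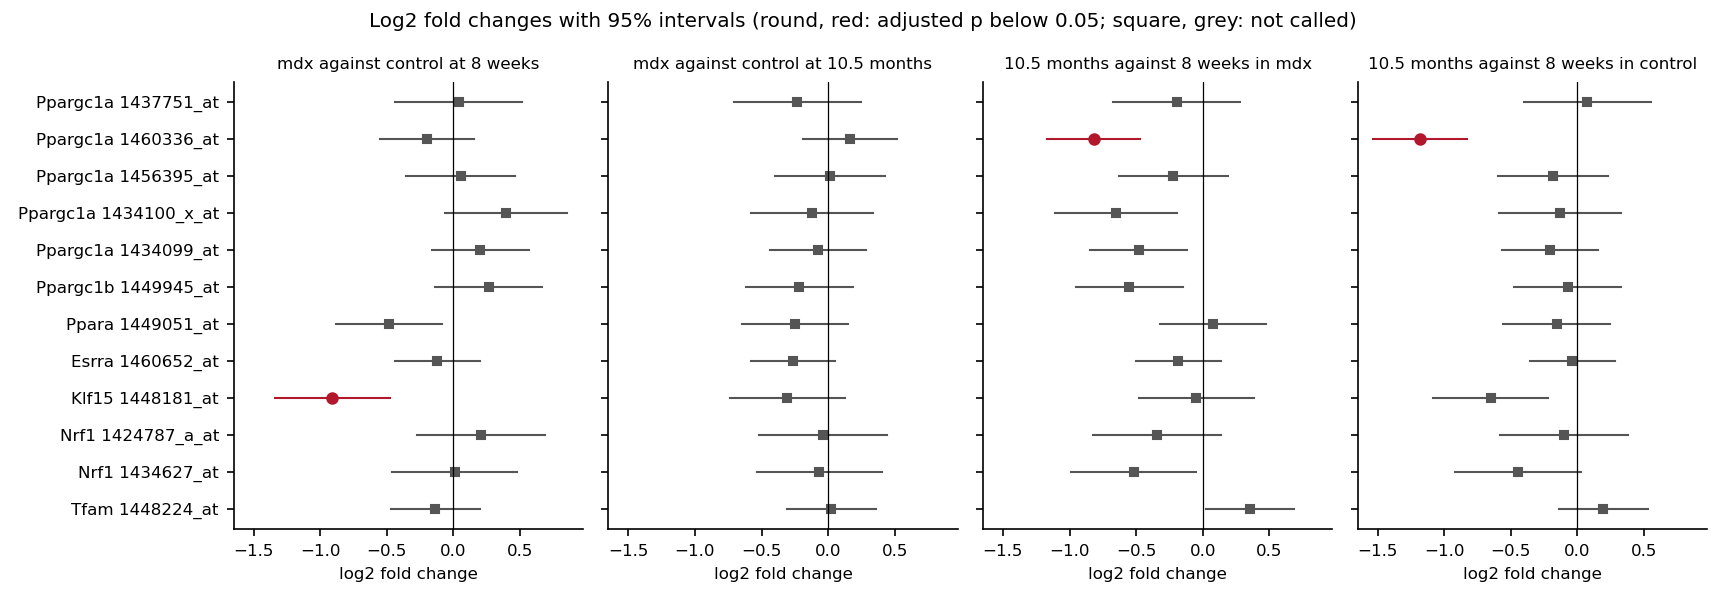
Log2 fold changes (horizontal axis) with 95% intervals for the 12 tested probe sets, in mdx against control hearts at 8 weeks and at 10.5 months and in 10.5 months against 8 weeks within mdx and within control hearts. Round red points passed an adjusted p of 0.05. They are Klf15 at 8 weeks (-0.91) and probe set 1460336_at of Ppargc1a with age (-0.82 in mdx hearts and -1.18 in controls).

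No difference between mdx and control hearts was called for any of the 5 probe sets of Ppargc1a. At 8 weeks their log2 fold changes ran from -0.20 to 0.39 and at 10.5 months from -0.23 to 0.16. Probe set 1460336_at lay lower on all mdx arrays at 8 weeks (-0.20 ± 0.16, adjusted p = 0.566), where 10.1% of all tested did. The brightest, 1437751_at, had 1003, 1052 and 1603 units in mdx hearts at 8 weeks, against 1527, 934 and 1092 in control hearts (0.04 ± 0.22, adjusted p = 0.951). At 10.5 months it had 1198, 1132 and 821 units in mdx hearts, against 1298, 1142 and 1232 in control hearts (-0.23 ± 0.22, adjusted p = 0.854). Single arrays were high in both genotypes at 8 weeks. The largest difference at 8 weeks was that of 1434100_x_at (0.39 ± 0.21, 95% interval -0.07 to 0.85, adjusted p = 0.360), a probe set of a kind that Affymetrix marks as able to bind related transcripts. That difference was 0.60 without mdx replicate 2 at 8 weeks (adjusted p = 0.155), 0.27 without mdx replicate 3 (adjusted p = 0.554) and 0.77 without the arrays of wide signal range (adjusted p = 0.110).

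With age, 1 probe set of Ppargc1a fell in both genotypes and the other 4 did not pass. Probe set 1460336_at had 664, 880 and 713 units in mdx hearts at 10.5 months, against 1210, 1468 and 1365 in mdx hearts at 8 weeks. It had 791, 556 and 664 units in control hearts at 10.5 months, against 1584, 1560 and 1493 in control hearts at 8 weeks. All 6 older hearts lay below all 6 younger ones. The fall was 1.77-fold in mdx hearts (log2 -0.82 ± 0.16, adjusted p = 0.0100) and 2.27-fold in controls (-1.18 ± 0.16, adjusted p = 0.00978). It was the only tested member called in either age comparison, where 11.4% of all tested probe sets were called in mdx hearts (5.97% lower) and 0.147% in controls (0.0536% lower). The 2 falls were not shown to differ (0.36 ± 0.23, adjusted p = 0.559).

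The call in controls was lost without control replicate 1 at 8 weeks (-1.16, adjusted p = 0.0672), without control replicate 2 at 10.5 months (-1.06, adjusted p = 0.0648), with only the 6 control arrays fitted (adjusted p = 0.0637) and without the arrays of wide signal range (-1.17, adjusted p = 0.0769). The call in mdx hearts was lost without the arrays of wide signal range (-0.81, adjusted p = 0.0900).

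The other 4 probe sets of Ppargc1a had age differences of -0.65 to -0.20 in mdx hearts and of -0.21 to 0.07 in controls. In mdx hearts 1434100_x_at had 797, 561 and 485 units at 10.5 months, against 1074, 716 and 1154 units at 8 weeks, with overlap (-0.65 ± 0.21, adjusted p = 0.0638). Its neighbour 1434099_at, designed on the same sequence record, had 651, 614 and 472 units at 10.5 months, against 821, 693 and 947 units at 8 weeks, without overlap (-0.48 ± 0.17, adjusted p = 0.0764). Both were past the threshold in mdx hearts after quantile normalization (adjusted p = 0.0399 and 0.0363). In controls they were at -0.13 ± 0.21 and -0.21 ± 0.17 (adjusted p = 0.847 and 0.666). Probe set 1456395_at had age differences of -0.22 ± 0.19 in mdx hearts and -0.18 ± 0.19 in controls (adjusted p = 0.460 and 0.741).

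The log2 signal of 1460336_at relative to the mean of the other 4 probe sets describes this split and was chosen after their values were seen, so it was not tested. In mdx hearts this difference was -0.33 to 0.31 at 10.5 months and 0.29 to 0.79 at 8 weeks. In controls it was -0.38 to -0.10 at 10.5 months and 0.75 to 0.93 at 8 weeks. The values of the 2 ages overlapped in mdx hearts and lay apart in controls. Across the 12 arrays the log2 signal of 1460336_at correlated with that of the other 4 at r = 0.13 to 0.65, and the 6 pairs among those 4 at r = 0.34 to 0.92, the highest being the pair designed on 1 record. These values describe arrays that share groups. Which transcript each probe set detects could not be examined here, as probe sequences and a genome were not used.

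**Figure D3:**
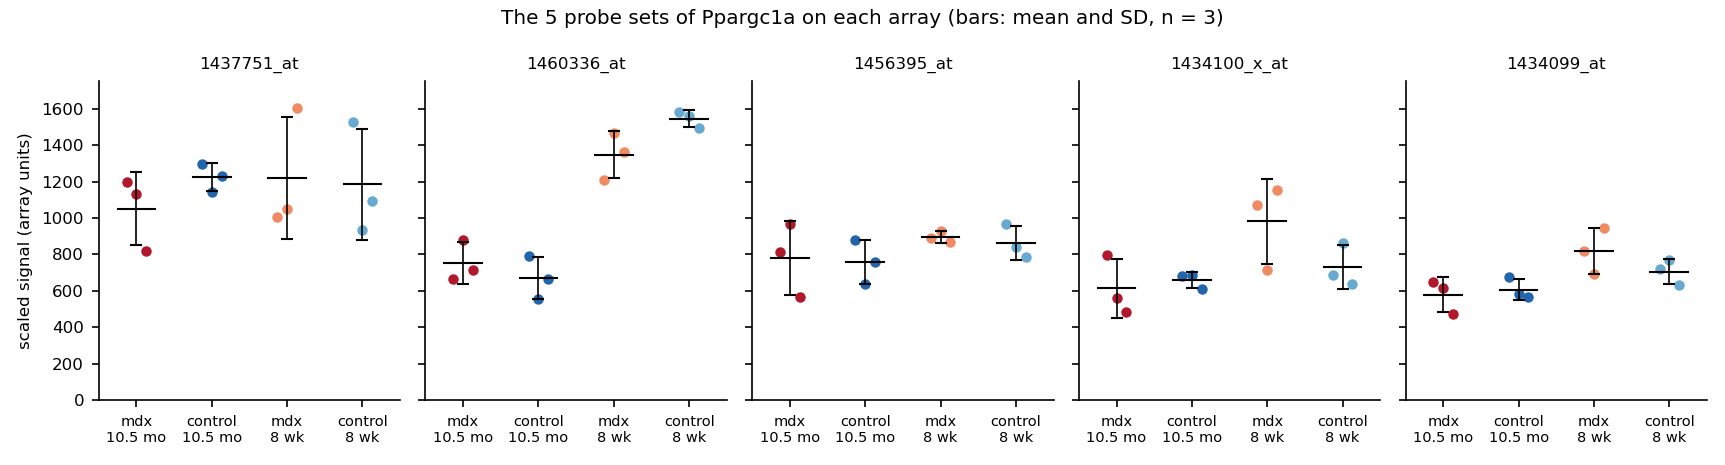
Scaled signal (vertical axis, array units) of the 5 probe sets of Ppargc1a in mdx and control hearts at 10.5 months and 8 weeks. Points are arrays, and bars are the mean and SD of 3 arrays. Probe set 1460336_at lies at 880 units or less in the older hearts and at 1210 or more in the younger ones, whereas the ages overlap for the other probe sets in controls.

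Of the 12 tested member probe sets, 4 lay lower on all mdx arrays at 10.5 months than on all mdx arrays at 8 weeks (2 of Ppargc1a, Ppargc1b and Esrra) and 0 lay higher, where 15.5% and 14.7% of all tested probe sets did. In controls 3 did (1 of Ppargc1a, Klf15 and 1 of Nrf1), where 10.5% of all tested did. The median log2 fold change over the 12 was -0.28 in mdx hearts and -0.15 in controls. Between the genotypes 0 of the 12 age effects differed by limma and 0 at an unadjusted p below 0.05, while 0.154% of all tested probe sets were called.

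The partners of these regulators were compared as lists. In mdx against control hearts, limma called 0 of 10 nuclear receptor partners, 0 of 12 coactivators and corepressors, 0 of 16 other factors of mitochondrial genes and 0 of 13 energy sensing kinases at each age. At an unadjusted p below 0.05 there were 1, 2, 3 and 1 at 8 weeks and 1, 1, 3 and 2 at 10.5 months. Medians at 8 weeks were 0.05, 0.09, 0.04 and 0.05, and at 10.5 months -0.08, -0.18, -0.23 and -0.12. In the list of other factors 15 of 16 had negative values at 10.5 months, among them the hypoxia factor Epas1 with 549 units in mdx hearts and 991 in control hearts (-1.08 ± 0.40, adjusted p = 0.650). Among coactivators the smallest p was that of Lpin1, which acts with PGC-1 alpha and PPAR alpha, at 2001 units in mdx hearts and 2897 in control hearts (-0.53 ± 0.17, adjusted p = 0.571).

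With age in mdx hearts 5.59% of all genes were called lower and 5.68% higher, and counts in this comparison stand beside these shares. Of 10 nuclear receptor partners 2 fell. Rxra, the retinoid receptor that pairs with PPAR alpha, had 309 units at 10.5 months and 523 at 8 weeks (-0.68 ± 0.19, adjusted p = 0.0378), and the liver X receptor gene Nr1h3 had 246 units at 10.5 months and 373 at 8 weeks (-0.55 ± 0.14, adjusted p = 0.0272). All 10 had negative values with a median of -0.42. Of 16 other factors 3 fell, which were Foxo3 (-0.74 ± 0.19, adjusted p = 0.0247), the MEF2 family gene Mef2d (-0.80 ± 0.23, adjusted p = 0.0430) and Epas1 (-1.39 ± 0.40, adjusted p = 0.0435). In these lists 0 members passed in control hearts, with 3 and 1 at an unadjusted p below 0.05, and without the arrays of wide signal range 0 members of either passed in mdx hearts. Among Kruppel-like factors 1 of 12 rose in mdx hearts with age, the dim gene Klf12 (128 units at 10.5 months and 48.9 at 8 weeks, 1.04 ± 0.27, adjusted p = 0.0292).

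The target lists had few members called with age in mdx hearts, beside the same shares of all genes. Of 24 PPAR alpha targets 1 fell, Acot1 (-1.71 ± 0.35, adjusted p = 0.0106), and 1 rose, Acot2 (0.64 ± 0.16, adjusted p = 0.0262). These thioesterase genes are close relatives whose probe sets may detect each other's transcripts. Of 24 ERR alpha targets 1 fell, the succinyl-CoA ligase gene Suclg1, with 5840 units at 10.5 months and 8526 at 8 weeks (-0.55 ± 0.14, adjusted p = 0.0259). Of 22 NRF1 targets limma called 0, with 7 at an unadjusted p below 0.05, where 30.1% of all genes were. Medians of the PPAR alpha, ERR alpha and NRF1 targets were -0.40, -0.39 and -0.11. They were -0.21, -0.16 and 0.22 after quantile normalization, -0.30, -0.22 and 0.06 with signal range as a block, and 0.08, 0.17 and 0.22 without the arrays of wide signal range, which leaves 1 mdx array at 8 weeks. Of 24 genes linked to KLF15 or branched-chain amino acids, Gpt2 fell (-0.83 ± 0.17, adjusted p = 0.0106), and Hibch, an enzyme of valine breakdown (0.59 ± 0.17, adjusted p = 0.0406), and the amino acid transporter gene Slc7a5 (1.53 ± 0.41, adjusted p = 0.0307) rose. Of 14 clock genes 5 fell and 1 rose in mdx hearts with age (median -0.57), and those with the smallest p were Tef (-1.18, adjusted p = 0.00500), the nuclear receptor gene Rora (-0.86, adjusted p = 0.00985), the cryptochrome gene Cry2 (-1.67, adjusted p = 0.0142) and Arntl, which encodes BMAL1 and rose (0.98, adjusted p = 0.0152). Of 18 glucocorticoid responsive genes 2 fell, the sulfotransferase gene Sult1a1 (-1.13, adjusted p = 0.00904) and the zinc finger gene Zbtb16 (-1.35, adjusted p = 0.0400), and the kinase gene Sgk1 rose (0.96, adjusted p = 0.0380). Without the arrays of wide signal range 1 clock gene was called, higher, and 0 glucocorticoid genes. In control hearts limma called 0 clock and 0 glucocorticoid genes, with 3 and 2 at an unadjusted p below 0.05. For the 4 lists before them it also called 0 in control hearts, with 2, 1, 2 and 2 at an unadjusted p below 0.05.

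**Figure D4:**
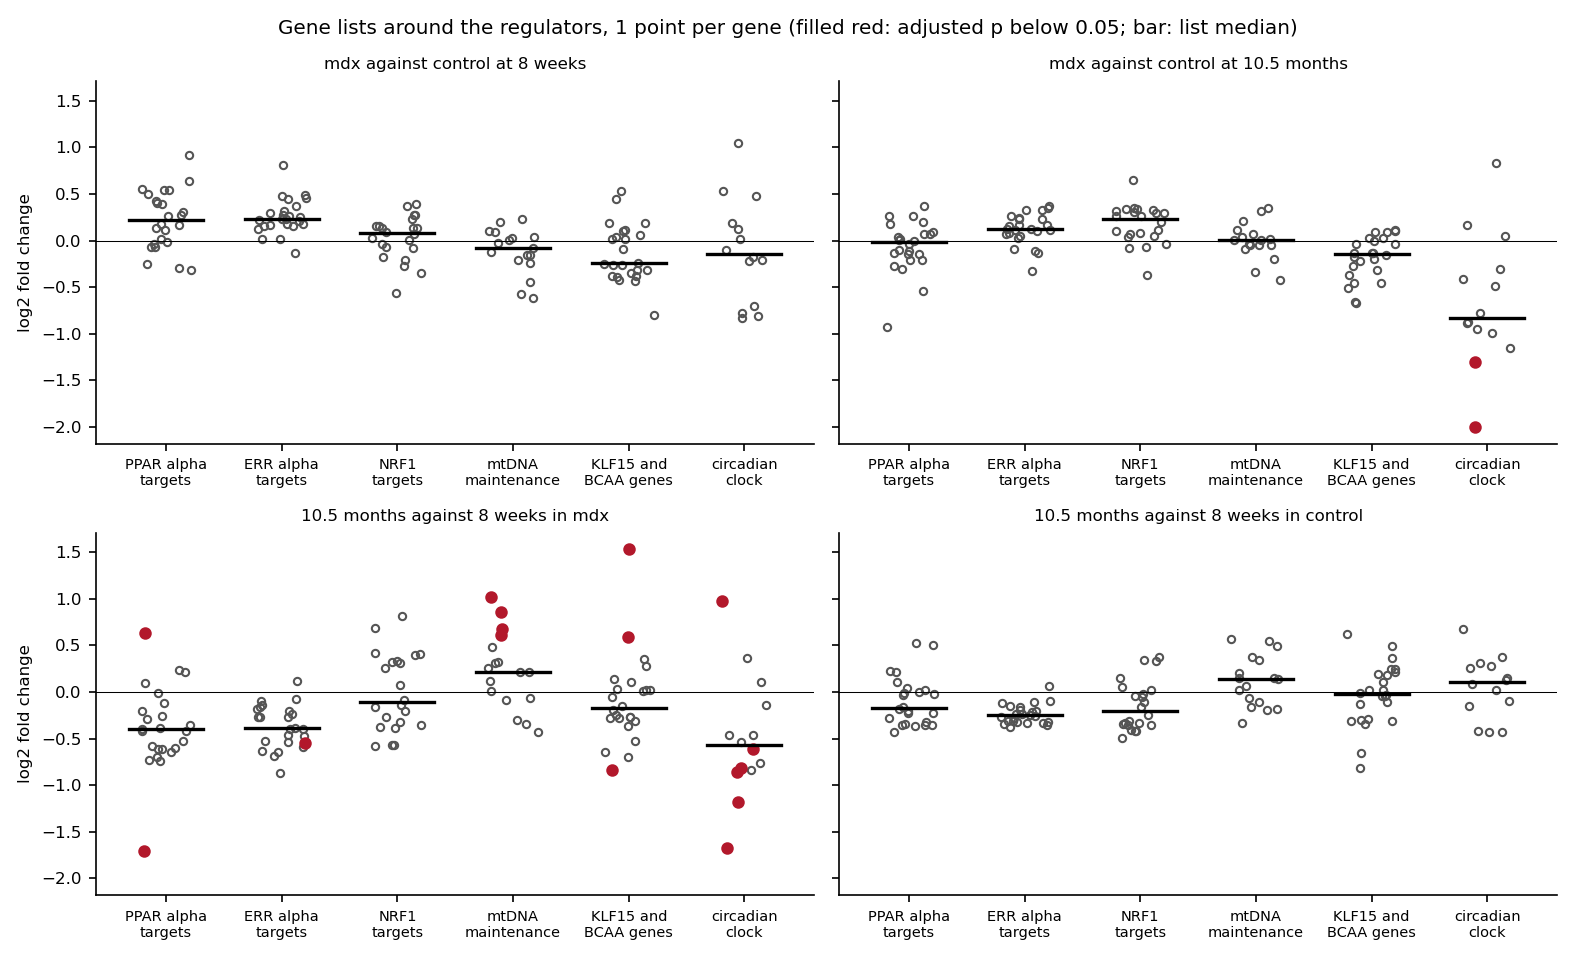
Log2 fold changes (vertical axis) of the genes in 6 lists, in mdx against control hearts at each age and in 10.5 months against 8 weeks within mdx and within control hearts. Each point is a gene by its brightest probe set, filled red points passed an adjusted p of 0.05, and bars are list medians. In mdx against control hearts the red points are the 2 clock genes Dbp and Tef at 10.5 months, and 4 of 17 mitochondrial DNA genes are red and above 0 with age in mdx hearts.

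Brown fat also expresses Ppargc1a and Ppara. The brown fat gene Ucp1 was at 7.6 to 22.1 units on all 12 arrays, well under the 100 units needed for testing, while the 10 adipocyte markers on the array summed to 10613 to 18819 units in mdx hearts and 11221 to 16496 in control hearts at 8 weeks. At 10.5 months they summed to 11428 to 15890 units in mdx hearts and 11259 to 12489 in control hearts. Limma called 0 of the 5 tested in either mdx comparison, with 0 at an unadjusted p below 0.05. With age it also called 0 of 5 in either genotype, with 1 at an unadjusted p below 0.05 in each. In control hearts all 5 had negative values (median -0.17), and Car3 had the smallest p (-1.73 ± 0.38, adjusted p = 0.109). In mdx hearts 3 were negative and 2 positive (median -0.26). The untested gene Adipoq had 50.6 to 141.1 units on the arrays at 8 weeks and 22.5 to 44.5 at 10.5 months. The part of fat in the age results was not tested.

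The genes with the most similar pattern to each member were found by Pearson's correlation of log2 signal over the 12 arrays among 8737 named genes, and are given as a description, since the best of so many is high by construction. For Klf15 they were Ncln, Wipi2 and Atg4d (r = 0.91, 0.89 and 0.88, Spearman's rho = 0.86, 0.85 and 0.78). For Ppara they were Rexo1, Cnot3 and Cpox (r = 0.84, 0.83 and 0.82, rho = 0.83, 0.78 and 0.73), the lowest of any member. For Esrra the nearest was Atxn7l3 (r = 0.94, rho = 0.96), for Ppargc1b Denn2b (r = 0.93, rho = 0.85) and for Tfam Bcl7c (r = 0.93, rho = 0.90). For the brightest Ppargc1a probe set it was Pard3 (r = 0.94, rho = 0.97) and for Nrf1 Ppp2r5b (r = 0.88, rho = 0.90). No member was among the 3 nearest genes of another.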

How the data were processed

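For each probe set the authors deposited 1 linear intensity per array, made by a standard Affymetrix protocol, per the labels, with software not given in the sources used here. The deposited arrays had trimmed means (2% left off at each end) between 1500.6 and 1500.9 and were therefore already scaled by the authors. Here they were brought to a trimmed mean of 500. Platform annotation named 1 gene for 20393 probe sets, several genes for 691 and no gene for 1606. Updating by gene ID through RefSeq reached 20364 of them. After 64 control probe sets and those averaging under 100 units were removed, group means of log2(signal + 32) were compared by limma 3.58.1 (R 4.3.3) over all 12 arrays. The fit had 8 residual and 5.2 prior degrees of freedom, Benjamini-Hochberg adjustment covered 14932 probe sets, and it was tested on simulated data. Sample titles gave the groups. The members, lists and tests were chosen with earlier results of these data known. Lists used each gene's brightest probe set, and the text names all members and, of a list's called genes, up to 4 by smallest p, or in some comparisons with none called the gene with the smallest p. Alternatives changed the offset, floor, filter, scaling, block, weights, covariate and arrays. The number of arrays limits the precision. The promoter window is RefSeq's for GRCm38.p6.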

Additional observations from a re-analysis of the deposited data

How the results depend on the processing

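The 24 alternatives to each result changed the offset (16), the floor (64), the filter, the scaling, the fit, the blocks or the arrays. The number of member probe sets called was 0 in mdx against control hearts at 10.5 months, and 0 for the difference of the mdx effects, in every setting that gave a value. At 8 weeks it was 1, and 0 with only the 6 arrays compared, with array weights, without the arrays of wide signal range and with the atrial score as a covariate, and leaving out single arrays gave 0 to 1. With age in control hearts it was 1, and 0 with only the 6 arrays compared and without the arrays of wide signal range, and leaving out single arrays gave 0 to 1. With age in mdx hearts it was 1, and 4 after quantile normalization, 3 with an intensity trend and robust prior, 2 with signal range as a block and 0 without the arrays of wide signal range, and leaving out single arrays gave 1 to 2. Several of these settings use fewer arrays, and the cause of the changes in count was not tested.

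Over the whole array, 343 probe sets were called in mdx against control hearts at 8 weeks. Lower counts were 23 with only those 6 arrays, 191 with array weights and 42 to 308 without single arrays. Higher counts were 455 after quantile normalization and 416 with no filter. At 10.5 months 7 were called, and 110 with array weights. With age 22 were called in control hearts, and 270 with array weights, and 1706 in mdx hearts, with 565 from only those 6 arrays.

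Deviations of same-numbered arrays correlated at -0.129, 0.135 and 0.115 at 8 weeks and at 0.025, -0.089 and -0.068 at 10.5 months. Differently numbered arrays were not compared, so these values cannot show whether the replicate numbers pair the samples. With the replicate block, Klf15 at 8 weeks was at -0.91 (limma adjusted p = 0.0386), Ppargc1a by 1460336_at with age at -0.82 in mdx hearts (adjusted p = 0.0195) and -1.18 in control hearts (adjusted p = 0.0411), and the count over the whole array at 8 weeks was 176.

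The sign turned in at least 1 alternative for 20 of 60 member fold changes, of which none was called and the largest was 0.26 in size. In mdx against control hearts at 8 weeks these were Ppargc1a by 1437751_at (-0.09 with array weights, -0.17 to 0.23 without single arrays) and by 1456395_at (-0.01 without the arrays of wide signal range, -0.01 to 0.14 without single arrays). Ppargc1b was at -0.04 without the arrays of wide signal range, Esrra at -0.19 to 0.01 without single arrays, and Nrf1 by 1434627_at at -0.04 after quantile normalization, -0.11 with array weights, -0.01 with the atrial covariate and -0.08 to 0.16 without single arrays. At 10.5 months they were Ppargc1a by 1456395_at (-0.04 with the atrial covariate, -0.15 to 0.22 without single arrays), by 1434100_x_at (0.02 without the arrays of wide signal range, -0.32 to 0.02 without single arrays) and by 1434099_at (0.06 without the arrays of wide signal range, -0.16 to 0.06 without single arrays). Nrf1 by 1424787_a_at was at 0.00 after quantile normalization, 0.05 with signal range as a block, 0.03 without the arrays of wide signal range and -0.18 to 0.03 without single arrays, and by 1434627_at at -0.21 to 0.19 without single arrays. Tfam was at -0.05 with array weights, 0.00 with signal range as a block, -0.10 without the arrays of wide signal range and -0.10 to 0.12 without single arrays. For the difference of the mdx effects they were Ppargc1a by 1456395_at (0.16 with array weights, 0.23 without the arrays of wide signal range, -0.20 to 0.17 without single arrays) and Nrf1 by 1434627_at (0.01 after quantile normalization, -0.22 to 0.19 without single arrays). With age in control hearts they were Ppargc1a by 1437751_at (-0.01 with array weights, -0.10 with signal range as a block, -0.08 without the arrays of wide signal range, -0.08 to 0.27 without single arrays), Esrra (-0.11 to 0.09) and Nrf1 by 1424787_a_at (-0.26 to 0.03 without single arrays). With age in mdx hearts they were Ppargc1a by 1437751_at (-0.32 to 0.01 without single arrays) and by 1456395_at (0.03 without the arrays of wide signal range), Ppara (-0.08 without the arrays of wide signal range, -0.04 to 0.18 without single arrays) and Klf15 (-0.18 to 0.15 without single arrays). The cause of these changes of sign was not tested. Dim probe sets such as those of Nrf1 were measured with the least signal over background.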
